A study of Mus musculus with 10 samples.

Results

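Inward rectifier and background potassium channels set the resting potential of the heart muscle cell, and 9 genes that encode them or their regulatory subunits were followed here by name: Kcnj2, Kcnj12, Kcnj3, Kcnj5, Kcnj8, Kcnj11, Abcc9, Abcc8 and Kcnk3. They were found by symbol among 45882 gene IDs, and all 9 passed the filter on low levels (a mean of at least 1 FPKM). The study sequenced RNA of left ventricular myocytes, isolated from adult mice of strain C57BL/6, with 1 mouse per library. Libraries came from 3 controls, 4 CTCF knockouts and 3 mice with pressure overload by transverse aortic constriction (TAC), in which the aorta is narrowed by surgery and the ventricle works against a higher load. CTCF is a DNA-binding protein with zinc fingers that helps to fold chromatin into loops. The labels give control and TAC mice no further allele or agent. How CTCF was deleted, the mice's exact ages, the genotype of the TAC mice and the time after surgery are not given in the sources used here. Levels are in FPKM (fragments per length of transcript, scaled to the size of the library), summed over the transcripts of a gene and rescaled between libraries.

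Inward rectifiers pass potassium ions more readily into the cell than out of it, because internal magnesium and polyamines plug the pore when the membrane is depolarised. They need the membrane lipid PIP2 to open. In ventricular myocytes the strong rectifiers hold the resting potential and speed the end of repolarisation. G protein-gated relatives answer to acetylcholine and adenosine, mostly in atrial and nodal cells, and ATP-sensitive relatives open when the energy state of the cell falls. Background channels of the tandem pore domain family leak potassium at all voltages.

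Several facts bear on every value. Ctcf was lower in each of the 4 CTCF knockout libraries (2.6 to 4.42 FPKM) than in the 3 controls (6.80 to 8.81), with a log2 fold change of -1.02 (SE 0.16, adjusted p = 0.00136 by limma). Summed over 8 myocyte markers, levels were 29800 to 32800 FPKM in controls, 24900 to 33200 in knockouts and 25900 to 33300 in TAC. Single myocyte markers differed at an adjusted p under 0.05 in limma. Myh6, Tnni3 and Ryr2 were lower and Mybpc3 higher in the knockout, and 4 did not pass. Tnni3 was lower and Mybpc3 higher in TAC, and 6 did not pass. Fibroblast markers summed to 136 to 266, 226 to 345 and 250 to 304 FPKM, and endothelial markers to 55.4 to 74.4, 66.8 to 132 and 80.5 to 119. These sums do not speak for each marker. Of 7 fibroblast markers tested, the collagens Col1a1, Col1a2 and Col3a1 were higher in both groups at an adjusted p under 0.05, and 4 did not pass. Of 8 endothelial markers, Emcn, Vwf and Eng were higher in the knockout at that level, 5 did not pass, and none passed in TAC. In bulk RNA, fewer cells of a type and less RNA per cell cannot be told apart. Sex was read here from Xist, an RNA of female cells, with over 1 FPKM taken as female. Control replicate 2, CTCF knockout replicate 4 and TAC replicates 1 and 3 were male by this rule (0.0214 to 0.115 FPKM). All other libraries were female (5.13 to 16.9 FPKM), so sex was not balanced between groups. The labels give about 50000000 read pairs per library on average, and the files hold no read counts.

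Among control libraries the genes spanned a wide range of levels, which FPKM makes comparable per length. Abcc9 was highest at 64.5 ± 10.9 FPKM (SD, n = 3), followed by Kcnk3 at 42.3 ± 6.40, Kcnj11 at 32.3 ± 1.92 and Kcnj3 at 25.3 ± 2.84. Below them stood Kcnj2 at 14.8 ± 1.98, Kcnj5 at 12.0 ± 1.33, Kcnj12 at 10.7 ± 1.23, Abcc8 at 9.07 ± 0.678 and Kcnj8 at 4.49 ± 0.643. Of neighbours in that order, only the libraries of Kcnj5 and Kcnj12 overlapped. The order differed in the other groups. In CTCF knockouts Kcnj11 led at 41.2 ± 4.37 FPKM (SD, n = 4), ahead of Kcnk3 at 29.5 ± 4.67 and Abcc9 at 24.2 ± 3.28, and these neighbours overlapped. Kcnj5, Kcnj2, Kcnj3 and Abcc8 also overlapped in turn, between 8.85 ± 0.469 and 7 ± 0.200 FPKM. In TAC the highest was Kcnk3 at 46.6 ± 7.09 FPKM (SD, n = 3), while Abcc9 at 32.2 ± 5.72 and Kcnj11 at 29.0 ± 1.82 overlapped, and Kcnj8 was lowest in all 3 groups.

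**Figure D1:**
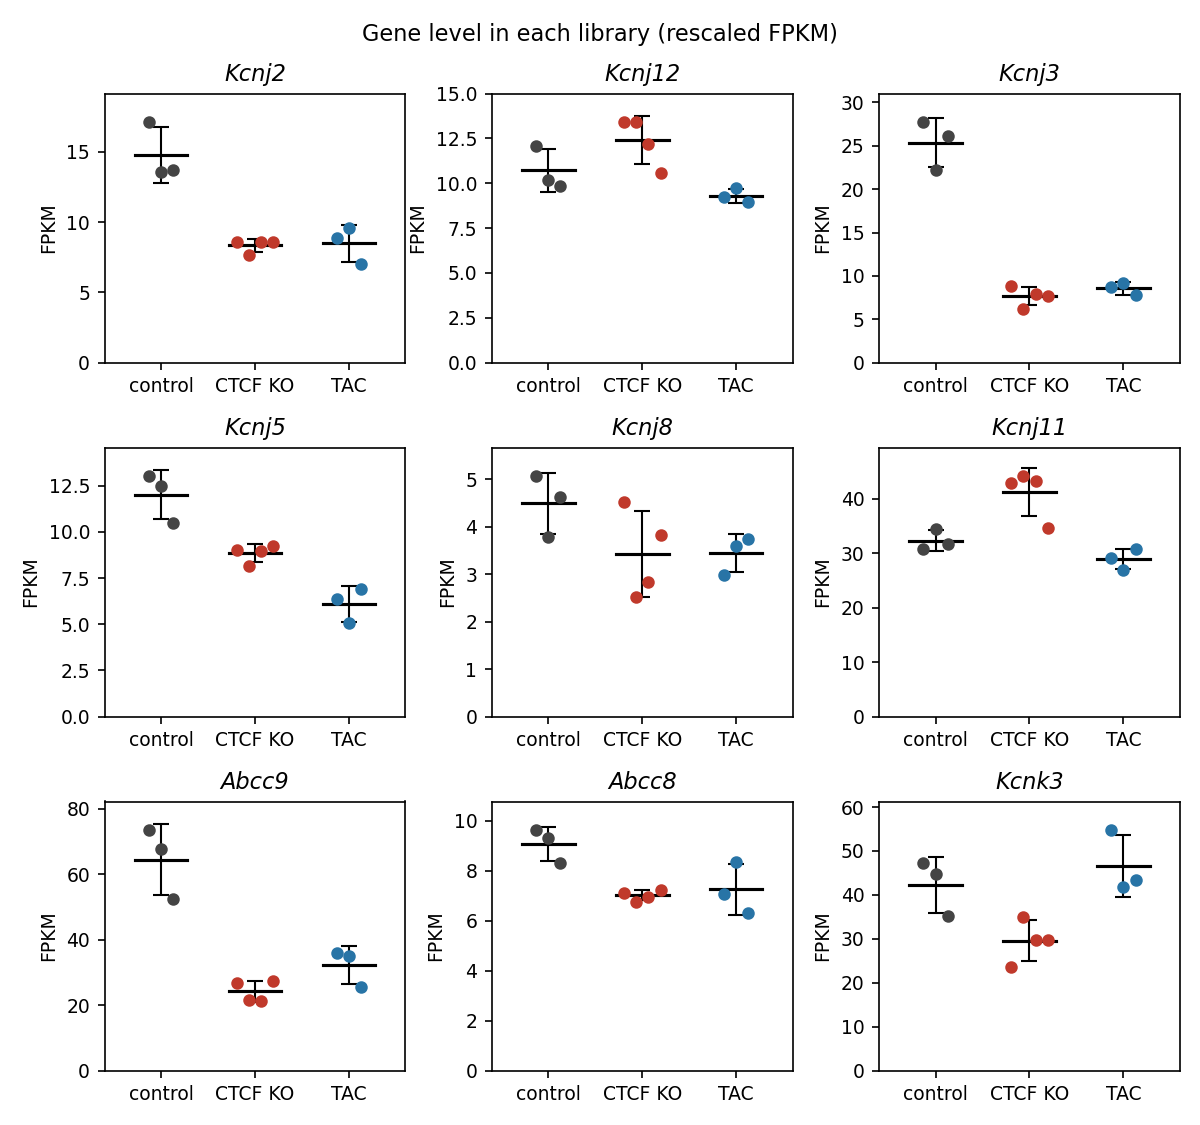
Level of each of the 9 genes in FPKM (vertical axes, from 0) in control, CTCF knockout (KO) and TAC libraries; each point is 1 library, the line is the mean and the bar the SD. Kcnj2, Kcnj3 and Abcc9 are lower in every knockout and every TAC library than in every control, while Kcnj11 is higher in knockouts only, from 34.7 to 44.1 FPKM.

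CTCF knockout libraries had 6 of the 9 genes lower and 1 higher than control, and 2 did not pass the test. Kcnj3, Abcc9, Kcnj2, Kcnk3, Kcnj5 and Abcc8 fell and Kcnj11 rose, where rose and fell mean an adjusted p under 0.05 in limma over all tested genes. Of the 11358 genes tested, 20.8% were called in this comparison, 10.6% as higher and 10.2% as lower. Libraries of 7 of the 9 genes did not overlap control, against 30.8% of tested genes. The median log2 fold change of the 9 genes was -0.39, against -0.01 for all tested genes. This count rests partly on small changes. Leaving out control replicate 1 or 2 or CTCF knockout replicate 1 or 3 reduced the calls from 7 to 3, and leaving out CTCF knockout replicate 2 reduced them to 4. Kcnj3, Abcc9 and Kcnj2 were called under all 23 alternative settings. Without rescaling of libraries 4 were called, and the share of called genes in the whole table that were higher went from 50.9% to 73.5%. That choice moved the median log2 fold change of all tested genes from -0.01 to 0.10.

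TAC libraries had 4 genes lower than the same controls, namely Kcnj3, Abcc9, Kcnj5 and Kcnj2. None rose, none was higher at an unadjusted p under 0.05 either, and 5 genes were lower at that unadjusted level. In this comparison 15.5% of tested genes were called, 8.08% as higher and 7.37% as lower. Libraries of 7 of the 9 did not overlap control, against 31.6% of tested genes. The median log2 fold change was -0.30, against 0 for all tested genes. All 4 calls held under each of 23 alternative settings. The knockout and TAC comparisons share their 3 control libraries, so likeness between them is in part built in.

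CTCF knockout and TAC libraries were also compared directly, where controls enter only through the shared estimate of the spread. Kcnj11 and Kcnj5 were higher and Kcnk3 lower in the knockout, and 6 genes did not pass, in a comparison where 3.28% of tested genes were called, 1.58% as higher and 1.70% as lower. Libraries of 4 of the 9 did not overlap, against 18.1% of tested genes. These 3 calls lay near the threshold. Leaving out 1 library left 0 or 1 of them for control replicate 2, for each of the 4 CTCF knockout replicates and for each of the 3 TAC replicates.

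**Figure D2:**
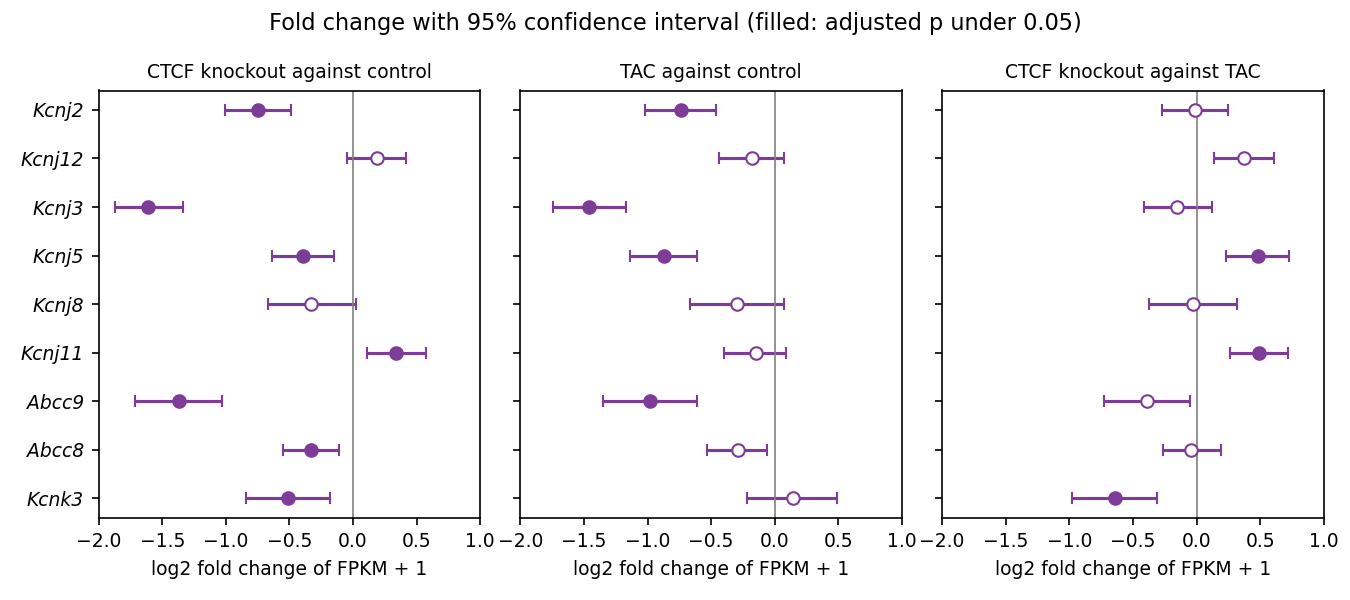
Log2 fold change of FPKM + 1 (horizontal axes) for each gene in the 3 comparisons, with 95% confidence intervals from limma; filled points have an adjusted p under 0.05. Kcnj3 has the lowest value against control in both CTCF knockout (-1.61) and TAC (-1.46), and Kcnk3 and Kcnj11 take opposite sides of 0 in the comparison of knockout with TAC.

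Kcnj2 encodes the strong inward rectifier Kir2.1, a main carrier of the resting current IK1 in ventricle. The gene (ENSMUSG00000041695, chr11:111066164-111076821, plus strand, mm10) has 1 transcript in the files. Its level was 17.1, 13.6 and 13.7 FPKM in the controls, 8.60, 7.67, 8.56 and 8.58 in CTCF knockouts and 8.88, 9.58 and 7 in TAC. Both latter groups lay wholly below the controls and overlapped each other. Kcnj2 fell in the knockout (log2 fold change -0.75, SE 0.12, adjusted p = 0.00138) and in TAC (-0.74, SE 0.13, adjusted p = 0.00311). Between knockout and TAC the difference was -0.01, with a 95% interval of -0.27 to 0.25.

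The promoter of Kcnj2 is shown because, of 6 promoter windows matched, it is the one with a match to a loose core of the CTCF motif. RefSeq (GRCm38) windows run from 250 bases before to 50 after the start. Searched on both strands were the CTCF core (CCA, 2 bases of any kind, AG, 2 of any kind, GGC), the MEF2 consensus and TATAAA, and no matches overlapped. The CTCF core lies 66 bases before the start of Kcnj2 and occurs in 2.43% of 32851 RefSeq promoters. It is in capitals in chr11:111065914-111066213, plus strand, read 5′ to 3′:
Kcnj2: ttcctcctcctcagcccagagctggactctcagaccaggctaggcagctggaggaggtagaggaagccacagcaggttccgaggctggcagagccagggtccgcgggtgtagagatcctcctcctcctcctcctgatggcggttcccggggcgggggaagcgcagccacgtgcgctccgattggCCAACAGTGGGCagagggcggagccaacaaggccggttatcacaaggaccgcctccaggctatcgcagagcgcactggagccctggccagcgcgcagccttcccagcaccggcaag
A match of letters is a description and not a measured site. GC content of this window was 66.7%, against a median of 52.7% over all promoters.

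Kcnj12 encodes Kir2.2, which can join Kir2.1 in the channels of IK1. The gene (ENSMUSG00000042529, chr11:61022564-61071131, plus strand) stood at 12.1, 10.2 and 9.87 FPKM in controls, 13.4, 13.4, 12.2 and 10.6 in CTCF knockouts and 9.22, 9.73 and 8.96 in TAC. Knockout and control libraries overlapped, and the TAC libraries lay just below both. No comparison passed: the log2 fold change was 0.19 (adjusted p = 0.244) in the knockout, -0.18 (adjusted p = 0.310) in TAC and 0.37 (adjusted p = 0.0842) between knockout and TAC. The transcript that starts upstream, ENSMUST00000089184, held 97.0% to 100% of the gene's FPKM. The RefSeq window of Kcnj12 lies 43240 bases from that start and is not printed.

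The ratio of Kcnj2 to Kcnj12 within a library, which no rescaling can alter, went from 1.41, 1.33 and 1.38 in controls to 0.643, 0.573, 0.699 and 0.810 in CTCF knockouts. In TAC it was 0.964, 0.985 and 0.781. Neither group overlapped the controls, and both had more Kcnj12 than Kcnj2 per length where controls had less. The exact two-sided permutation p was 0.0571 for the knockout and 0.1 for TAC, which are the smallest values that groups of 4 against 3 and of 3 against 3 allow. Adjusted over the 18 tests of 6 ratios in 3 comparisons, they were 0.129 and 0.147.

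Kcnj3 encodes Kir3.1, a subunit of the G protein-gated channel that carries the acetylcholine-activated current IKACh. This gene (ENSMUSG00000026824, chr2:55435970-55598145, plus strand) had the lowest fold changes of the 9. It stood at 27.7, 22.2 and 26.1 FPKM in controls, 8.80, 6.21, 7.94 and 7.72 in CTCF knockouts and 8.71, 9.18 and 7.79 in TAC. Mean levels were 30.3% of control in the knockout and 33.8% in TAC, with no overlap. The log2 fold changes were -1.61 (SE 0.12, adjusted p = 1.65e-05) and -1.46 (SE 0.13, adjusted p = 6.71e-05). Knockout and TAC overlapped, with a difference of -0.15 and a 95% interval of -0.41 to 0.12.

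All 3 listed transcripts of Kcnj3 fell in both comparisons, where 14.6% of 17773 tested transcripts were called in the knockout (7.47% as lower) and 9.94% in TAC (4.33% as lower). ENSMUST00000067101, with 4 exons and 501 residues, was at 13.9, 12.0 and 13.3 FPKM in controls, 3.39, 2.08, 2.90 and 4.59 in CTCF knockouts and 4.70, 3.84 and 3.32 in TAC. Its log2 fold changes were -1.76 (adjusted p = 0.000516) and -1.51 (adjusted p = 0.00205). ENSMUST00000112633, which encodes the same number of residues, went from 6.83 to 7.10 FPKM in controls to 2.14 to 4.22 in knockouts and 2.83 to 4.07 in TAC. ENSMUST00000112632 skips an exon and encodes 235 residues, and it went from 3.12 to 6.63 FPKM to 0.993 to 1.41 and 1.19 to 1.26. In TAC the call for ENSMUST00000112633 (adjusted p = 0.0200) was lost without control replicate 1 (adjusted p = 0.0541), control replicate 2 (0.0514), TAC replicate 1 (0.0648) or TAC replicate 3 (0.0617). How reads divide among transcripts is an estimate by Cufflinks.

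The promoter of Kcnj3, the gene that fell most, held none of the 3 motifs, which says only that these letters are not in this window. It is chr2:55435720-55436019 (plus strand, GRCm38), with a GC content of 57.7%:
Kcnj3: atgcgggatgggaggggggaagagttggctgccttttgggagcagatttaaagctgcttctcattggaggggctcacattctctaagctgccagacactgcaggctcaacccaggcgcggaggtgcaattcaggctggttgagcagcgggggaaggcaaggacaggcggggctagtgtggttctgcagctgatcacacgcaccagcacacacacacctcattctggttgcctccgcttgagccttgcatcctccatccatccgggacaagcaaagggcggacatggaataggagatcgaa

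Kcnj5 encodes Kir3.4, the partner of Kir3.1 in IKACh. The gene (ENSMUSG00000032034, chr9:32314783-32344237, minus strand) stood at 13.0, 12.5 and 10.5 FPKM in controls, 9.01, 8.17, 8.96 and 9.25 in CTCF knockouts and 6.35, 5.05 and 6.93 in TAC. The 3 groups did not overlap, with TAC lowest. In TAC it fell by 0.87 on the log2 scale (SE 0.12, adjusted p = 0.000892). In the knockout the log2 fold change was -0.39 (SE 0.11, adjusted p = 0.0302), and the knockout was 0.48 above TAC (SE 0.11, adjusted p = 0.0462). The knockout call against control was lost without control replicate 1 (adjusted p = 0.0987), control replicate 2 (0.0941) or CTCF knockout replicate 1 (0.0556), 2 (0.0801) or 3 (0.0582), and without rescaling (0.168). Against TAC it was lost without control replicate 2 (0.0645), without any 1 CTCF knockout library (0.0668 to 0.115) and without any 1 TAC library (0.0535 to 0.159).

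The ratio of Kcnj3 to Kcnj5 was 2.13, 1.78 and 2.50 in controls, 0.977, 0.759, 0.886 and 0.835 in CTCF knockouts and 1.37, 1.82 and 1.13 in TAC. Knockout libraries lay below all others, and TAC overlapped control. The exact two-sided permutation p was 0.0571 for knockout against control and for knockout against TAC (0.129 adjusted over 18 tests), and 0.200 for TAC against control (0.212 adjusted).

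Kcnj3 and Kcnj5 are best known from atrial and nodal cells, so markers of these cells are given beside them. Of 8 atrial markers, Bmp10 stood at 0 to 0.0736 FPKM, Sln at 0 to 1.98 and Myl7 at 1.77 to 13.5 over the 10 libraries. The 8 atrial markers summed to 60.8 to 81.5 FPKM in controls, 980 to 1790 in CTCF knockouts and 1030 to 2400 in TAC. Most of that sum is Nppa, the atrial natriuretic peptide gene, at 43.3 to 43.8, 958 to 1770 and 1020 to 2380 FPKM. Of the 6 atrial markers tested, Nppa and Dkk3 rose and Tbx5 fell in the knockout, and Nppa rose and Tbx5 fell in TAC. Tbx5, a transcription factor of the heart also expressed in ventricle and singled out with Dkk3 after its values were seen, stood at 9.68, 6.73 and 6.76 FPKM in controls, 4.88, 5.13, 4.98 and 5.25 in CTCF knockouts and 3.6, 4.14 and 3.44 in TAC. Like Kcnj5, its groups did not overlap and TAC was lowest, with log2 fold changes of -0.51 in the knockout (adjusted p = 0.0129) and -0.87 in TAC (adjusted p = 0.00132). With equal protein-coding totals the knockout call was lost (-0.40, adjusted p = 0.0741). Dkk3 gave 0.97 in the knockout (adjusted p = 0.00223), at 1.66 to 2.76 FPKM against 0.295 to 1.02, and 0.48 in TAC (adjusted p = 0.0923).

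Markers of the conduction system summed to 8.49 to 10.6, 6.29 to 7.43 and 5.14 to 5.60 FPKM, with Isl1 at 0 in all control and TAC libraries, and Hcn4 between 0.624 and 1.26 FPKM in all libraries. Among these markers Cacna1g, a T-type calcium channel gene, fell in the knockout (-0.94, adjusted p = 0.000828) and in TAC (-1.16, adjusted p = 0.000495). The part of atrial and conduction cells in the fall of Kcnj3 and Kcnj5 was not tested.

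Genes that act on this channel were taken from a list of receptors, G protein subunits and RGS proteins, of which 19 of 21 were tested. In CTCF knockouts 4 rose and 2 fell, where 10.6% of all tested genes rose and 10.2% fell, so the number that fell is near the background. The list's median log2 fold change was 0.14 against -0.01 for all tested genes. Gnao1, the alpha subunit of Go, rose from 1.73, 1.09 and 1.78 FPKM in controls to 4.72, 6.63, 7.13 and 6.49 in knockouts (log2 fold change 1.51, adjusted p = 6.76e-05). Gnai1, an inhibitory alpha subunit, rose by 0.84 (adjusted p = 0.00381), Rgs3 by 0.87 (adjusted p = 0.000387) and Gnb2, a beta subunit, by 0.38 (adjusted p = 0.0188). The Gnb2 call was lost without control replicate 1 (adjusted p = 0.0602), control replicate 3 (0.0717) or CTCF knockout replicate 1 (0.05). RGS proteins speed the shut-off of G protein signals.

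Rgs2 and Chrm2 fell in CTCF knockouts. Rgs2 stood at 16.1, 14.9 and 22.1 FPKM in controls, 8.30, 8.29, 5.87 and 7.01 in knockouts and 5.02, 5.85 and 5.4 in TAC. Chrm2, the muscarinic receptor through which acetylcholine opens IKACh, stood at 32.9, 29.5 and 32.5 FPKM in controls, 24.0, 20.0, 20.4 and 23.1 in knockouts and 21.3, 18.4 and 27.3 in TAC. Every knockout and TAC library lay below every control for both genes. In the knockout the log2 fold changes were -1.15 for Rgs2 (adjusted p = 0.000365) and -0.51 for Chrm2 (adjusted p = 0.0156), and without rescaling Chrm2 lost its call (adjusted p = 0.1).

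In TAC 2 of the 19 tested genes of this list rose and 3 fell, against 8.08% and 7.37% of all tested genes, so the number that rose is near the background. The median was -0.03 against 0. Gnao1 rose by 1.61 (adjusted p = 0.000110) and Rgs3 by 0.57 (adjusted p = 0.00943), while Rgs2 had a log2 fold change of -1.52 (adjusted p = 0.000174). The calls for Chrm2 (-0.50, adjusted p = 0.0309) and for the adenosine receptor gene Adora1 (-0.60, adjusted p = 0.0488) were weaker. Chrm2 lost its call without control replicate 1 (adjusted p = 0.0742), control replicate 3 (0.0777), TAC replicate 1 (0.0845) or TAC replicate 2 (0.105). Libraries of Adora1 overlapped between TAC and control, and it lost its call without any 1 library except control replicate 3, with adjusted p from 0.0561 to 0.153. Between knockout and TAC, Gnai1 was 1.30 higher in the knockout (adjusted p = 0.00336), at 1.97 to 3.25 FPKM against 0.325 to 0.920, and Adora1 was 0.74 higher (adjusted p = 0.0425), a call lost without any 1 CTCF knockout or TAC library (0.0517 to 0.135). Both calls of Adora1, against control and between knockout and TAC, were also lost with sex as a covariate.

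**Figure D3:**
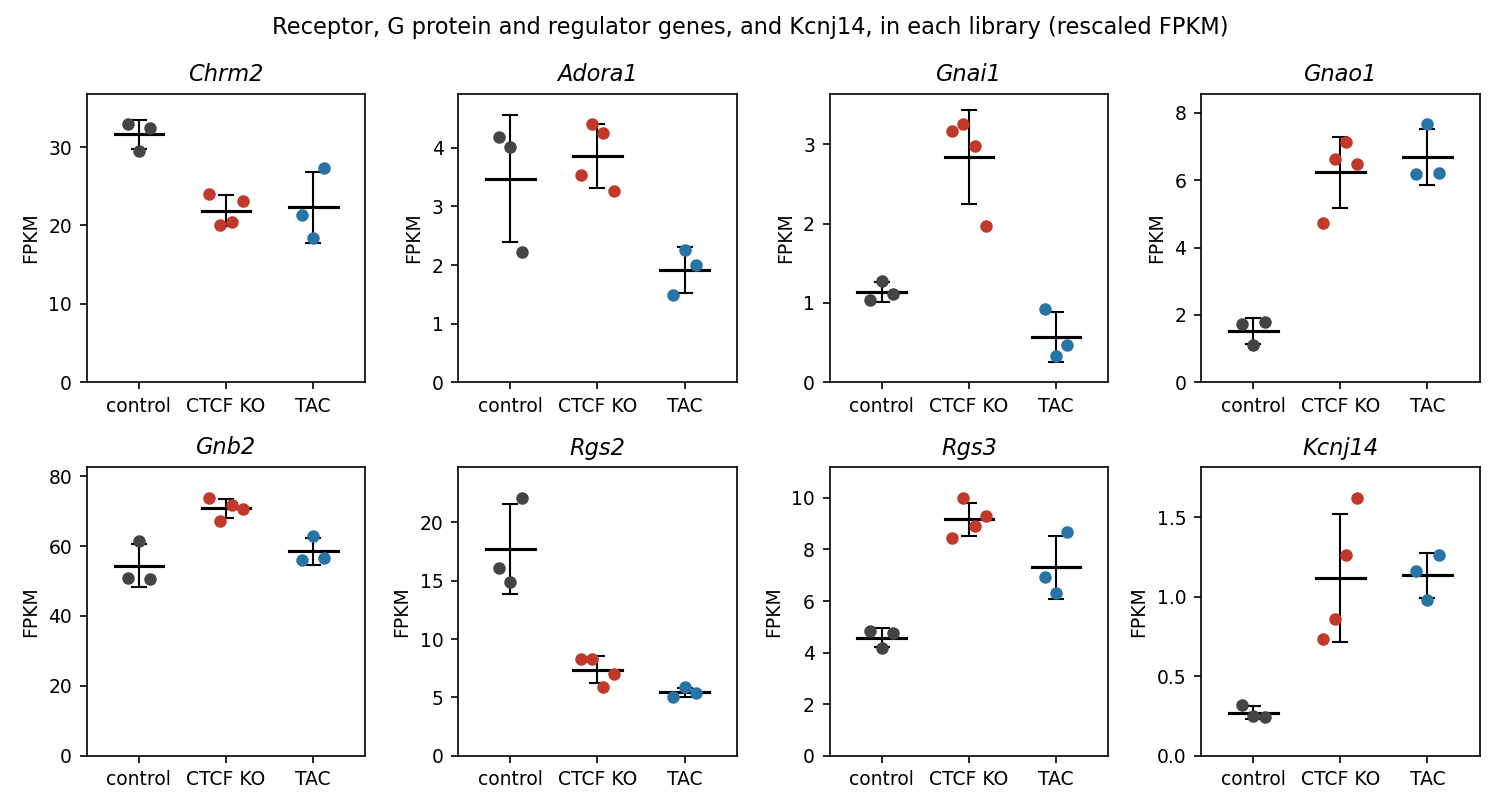
Levels in FPKM (vertical axes, from 0) of 7 genes of receptors, G proteins and their regulators, and of Kcnj14, in control, CTCF knockout (KO) and TAC libraries; points are libraries, lines means and bars SD. Gnao1 is between 4.72 and 7.66 FPKM in knockout and TAC libraries and between 1.09 and 1.78 in controls, and Gnai1 is high in knockouts only, from 1.97 to 3.25 FPKM.

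ATP-sensitive channels join a pore subunit, Kir6.1 (Kcnj8) or Kir6.2 (Kcnj11), with a sulfonylurea receptor, SUR1 (Abcc8) or SUR2 (Abcc9). Intracellular ATP closes them, and the receptor lets magnesium nucleotides open them. Their genes lie in pairs: Kcnj8 and Abcc9 are neighbours on chromosome 6, 16.5 kb apart, and Kcnj11 and Abcc8 on chromosome 7, 4.6 kb apart, with no gene annotated between. In the knockout Abcc9 fell and Kcnj8 did not pass, and Kcnj11 rose while Abcc8 fell.

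Kcnj11, the pore subunit of the ventricular channel (ENSMUSG00000096146, chr7:46098725-46099897, minus strand), is given in the files as a single exon of 1173 nt. Its level was 30.7, 34.4 and 31.7 FPKM in controls, 42.8, 44.1, 43.3 and 34.7 in CTCF knockouts and 29.2, 27.0 and 30.7 in TAC. Every knockout library lay above every control, though CTCF knockout replicate 4 did so by a small margin. Kcnj11 rose in the knockout (log2 fold change 0.34, SE 0.10, adjusted p = 0.0390) and stood 0.49 above TAC (SE 0.10, adjusted p = 0.0294), while TAC against control gave -0.15 (adjusted p = 0.403). The call against control was lost without control replicate 1 (adjusted p = 0.106), 2 (0.0555) or 3 (0.0974), CTCF knockout replicate 1 (0.0899), 2 (0.104) or 3 (0.0939), or TAC replicate 1 (0.0501), and with rescaling over all genes above 0 (0.0828). The call against TAC was lost without CTCF knockout replicate 1 (0.0802), 2 (0.0728) or 3 (0.0891) or any 1 TAC library (0.0562 to 0.120). Both calls of Kcnj11 were also lost with sex as a covariate.

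Kcnj8, the pore subunit better known from vascular cells (ENSMUSG00000030247, chr6:142564939-142571356, minus strand), stood at 5.06, 3.79 and 4.62 FPKM in controls, 4.52, 2.53, 2.83 and 3.82 in CTCF knockouts and 2.99, 3.6 and 3.74 in TAC. Knockout libraries overlapped the controls and TAC libraries lay just below them. Neither passed, at -0.33 (adjusted p = 0.168) and -0.30 (adjusted p = 0.255). Pericyte markers, which mark the cells of small vessels, summed to 52.2 to 70.4 FPKM in controls, 41.1 to 62.4 in knockouts and 49.2 to 62.3 in TAC over 8 genes, none at 0. Most of that sum is Rgs5, at 35.6 to 51.5, 23.4 to 39 and 28.1 to 38.7 FPKM, and the markers differed in direction. Cspg4 rose in the knockout (1.09, adjusted p = 6.76e-05 by limma) and in TAC (1.25, adjusted p = 7.33e-05). Cox4i2 fell in the knockout (-0.64, adjusted p = 0.0121), and the other pericyte markers, Rgs5 among them, did not pass. The ratio of Kcnj11 to Kcnj8 was 6.06 to 9.07 in controls, 9.09 to 17.5 in knockouts and 7.51 to 9.77 in TAC. Knockouts lay above control by a very small margin (exact two-sided permutation p = 0.0571, and 0.129 adjusted over 18 tests). TAC overlapped control (p = 0.4, exact, and 0.4 adjusted), and knockout overlapped TAC (p = 0.171, exact, and 0.193 adjusted).

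Abcc8 encodes SUR1, the receptor of the pancreatic beta cell that is also found in mouse heart. The gene (ENSMUSG00000040136, chr7:46104523-46180033, minus strand) stood at 9.61, 9.29 and 8.31 FPKM in controls, 7.10, 6.76, 6.94 and 7.22 in CTCF knockouts and 7.06, 8.36 and 6.32 in TAC. Of 6 markers of pancreatic endocrine cells, Ins1, Ins2, Gcg, Chga and Scg2 were at 0 in all libraries, and Chgb was at 0.0159 to 0.125 FPKM, above 0 in all 10. Abcc8 fell in the knockout (log2 fold change -0.33, SE 0.10, adjusted p = 0.0393), with no overlap, and TAC overlapped control (-0.29, adjusted p = 0.0923). The knockout call was lost without control replicate 1 (adjusted p = 0.114) or 2 (0.107), any 1 CTCF knockout library (0.0633 to 0.0927) or TAC replicate 1 (0.0510), and without rescaling (0.178). Without TAC replicate 2 the TAC comparison passed (-0.39, adjusted p = 0.0424).

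Abcc9, the most abundant of the 9 in controls, encodes SUR2 (ENSMUSG00000030249, chr6:142587862-142702274, minus strand). Its level was 73.4, 67.7 and 52.3 FPKM in controls, 26.7, 21.6, 21.2 and 27.4 in CTCF knockouts and 36.0, 35.1 and 25.6 in TAC. Both groups lay below all controls, at 37.6% and 50.0% of the control mean, and overlapped each other. Abcc9 fell in the knockout (log2 fold change -1.37, SE 0.16, adjusted p = 0.000186) and in TAC (-0.98, SE 0.17, adjusted p = 0.00293), and knockout against TAC gave -0.39 (adjusted p = 0.213).

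Abcc9 transcripts have alternative ends that give SUR2A and SUR2B, receptors with different responses to nucleotides and to channel-opening drugs. In the files, 3 transcripts keep a 176-nt exon before the last (chr6:142593967-142594142, mm10) and stop inside it, as SUR2A does. ENSMUST00000100827 skips it and stops in the last exon, as SUR2B does. The ends of the coding sequence are shown because the readout divides along them; each has 45 codons and a stop, given in capitals, on the minus strand from GENCODE (GRCm38), at chr6:142594005-142594142 and chr6:142590366-142590503:
exon kept: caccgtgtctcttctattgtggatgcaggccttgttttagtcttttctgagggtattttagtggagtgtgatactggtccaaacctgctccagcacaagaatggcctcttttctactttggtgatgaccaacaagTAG
exon skipped: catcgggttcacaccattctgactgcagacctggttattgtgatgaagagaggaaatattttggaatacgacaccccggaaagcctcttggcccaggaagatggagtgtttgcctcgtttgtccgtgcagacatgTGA
Before the stop, 69 of 135 aligned positions are identical (51.1%).

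Transcripts that keep the exon summed to 60.2, 53.7 and 40.8 FPKM in controls, 19.1, 14.7, 13.0 and 18.2 in CTCF knockouts and 26.3, 26.5 and 18.5 in TAC. The transcript that skips it stood at 13.2, 14 and 11.5 FPKM in controls, 7.65, 6.90, 8.20 and 9.22 in knockouts and 9.70, 8.55 and 7.17 in TAC. Both ends were lower in both groups than in all controls. Means of the kept end were 31.5% of control in the knockout and 46.0% in TAC, and those of the skipped end 62.1% and 65.8%.

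As a share of Abcc9 FPKM, the skipped end made up 18.0%, 20.6% and 21.9% in controls, 28.6%, 32.0%, 38.6% and 33.7% in CTCF knockouts and 27.0%, 24.4% and 27.9% in TAC. The 3 groups did not overlap, with the knockout highest and control lowest, and the share was not tested. By transcript, the main one with the exon, ENSMUST00000087527, had log2 fold changes of -1.58 in the knockout (adjusted p = 0.000919) and -1.10 in TAC (adjusted p = 0.00988). ENSMUST00000073173, which also keeps it, had -1.30 (adjusted p = 0.000919) and -0.72 (adjusted p = 0.0257), and the skipped form ENSMUST00000100827 had -0.63 (adjusted p = 0.0110) and -0.55 (adjusted p = 0.0310).

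In TAC the ENSMUST00000073173 call was lost without any 1 control library (adjusted p from 0.0502 to 0.0768), TAC replicate 1 (0.0655) or TAC replicate 3 (0.0871). For ENSMUST00000100827 in TAC it was lost without control replicate 1 (0.0786), control replicate 2 (0.0899), TAC replicate 2 (0.0735) or TAC replicate 3 (0.1). Cufflinks lists bounds around each FPKM, and over the 13 of 17 transcripts of the 9 genes with a mean of at least 1 FPKM the upper bound lay 3.90% to 31.4% above the value, with a median of 7.61%.

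**Figure D4:**
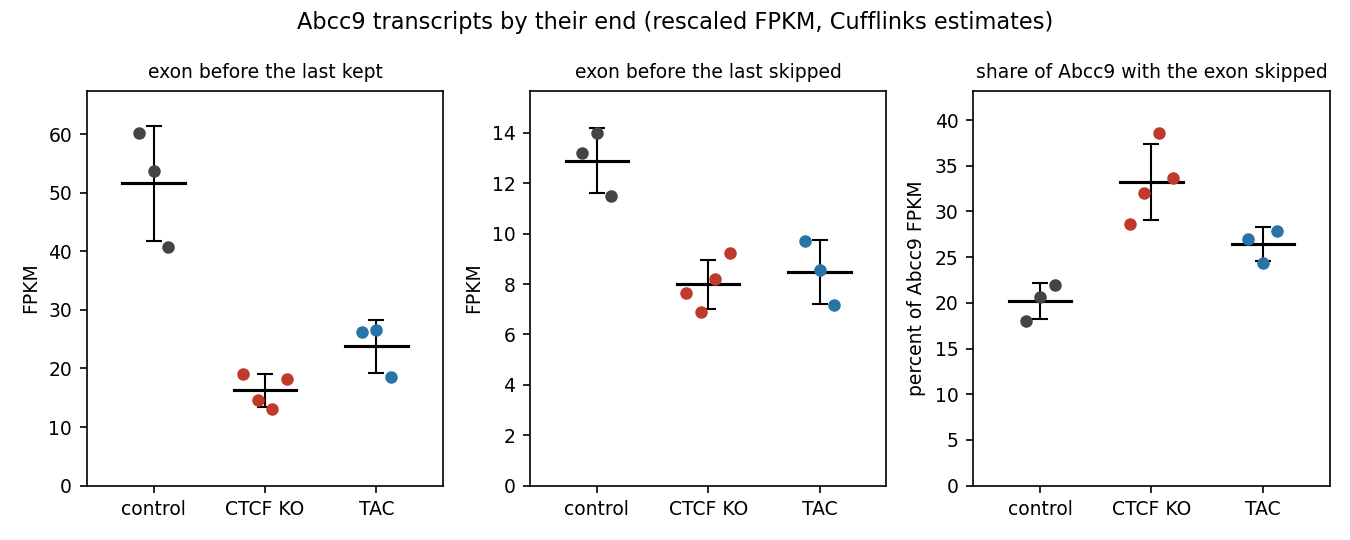
Abcc9 transcripts that keep the exon before the last (left) and the transcript that skips it (middle), in FPKM, and the skipped share in percent (right), by group; points are libraries, lines means and bars SD. The kept end is lower in knockout (13.0 to 19.1 FPKM) and TAC (18.5 to 26.5) than in control (40.8 to 60.2), and the skipped share is highest in the knockout.

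The promoter of Abcc9 (chr6:142702225-142702524, minus strand, GRCm38, GC content 65.7%) holds the MEF2 consensus, in capitals. The match begins 8 bases before the start and runs across it. MEF2 factors bind muscle gene promoters, and a match is found in 3.19% of RefSeq promoters:
Abcc9: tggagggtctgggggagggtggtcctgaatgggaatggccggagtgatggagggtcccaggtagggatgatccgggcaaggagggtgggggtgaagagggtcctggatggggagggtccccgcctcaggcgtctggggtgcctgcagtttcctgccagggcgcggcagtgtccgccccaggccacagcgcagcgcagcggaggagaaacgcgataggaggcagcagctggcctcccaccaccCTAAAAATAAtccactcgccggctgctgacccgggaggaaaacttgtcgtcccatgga
TATAAA occurs in none of the 6 windows of the 9 genes that had an entry, and in 13.6% of all promoters. Kcnj11, Abcc8 and Kcnk3 were not matched.

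Abcc9 is also expressed by smooth muscle and pericytes, and the sum over markers of smooth muscle was lower in the same groups. They summed to 79.0 to 88.3 FPKM in controls, 45.9 to 52.6 in CTCF knockouts and 41.8 to 50.8 in TAC over 7 genes. Most of that sum is Smtn, at 40.9 to 53.5, 29.3 to 35.3 and 25.5 to 30.4 FPKM, and Acta2, at 23.3 to 35.1, 10.2 to 12.1 and 9.92 to 18.8. The more specific Myh11 stood at 0.488 to 2.95, 1.18 to 1.54 and 0.667 to 1.22 FPKM, and Cnn1 at 0.0930 to 0.530, 0.28 to 0.490 and 0.350 to 0.651. Tagln stood at 0.623 to 6.24, 1.78 to 3.03 and 1.62 to 3.32 FPKM. Of 5 markers tested, Acta2 and Smtn fell in both comparisons with control, and Myh11, Tagln and Mylk did not pass. The part of smooth muscle cells and pericytes in the fall of Abcc9 was not tested.

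The balance of ATP-sensitive subunits was taken as ratios within libraries. Abcc9 to Abcc8 was 7.64, 7.28 and 6.29 in controls, 3.76, 3.19, 3.06 and 3.79 in CTCF knockouts and 5.09, 4.19 and 4.06 in TAC. Kcnj11 to Abcc9, pore against receptor, was 0.418, 0.508 and 0.606 in controls, 1.60, 2.05, 2.04 and 1.27 in knockouts and 0.812, 0.771 and 1.20 in TAC. For both ratios no 2 groups overlapped. Per length there was less Kcnj11 than Abcc9 in every control and more in every knockout library. Exact two-sided permutation p was 0.0571 for both in the knockout against control and against TAC and 0.1 in TAC against control, the smallest the group sizes allow. Adjusted over the 18 tests these were 0.129 and 0.147.

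**Figure D5:**
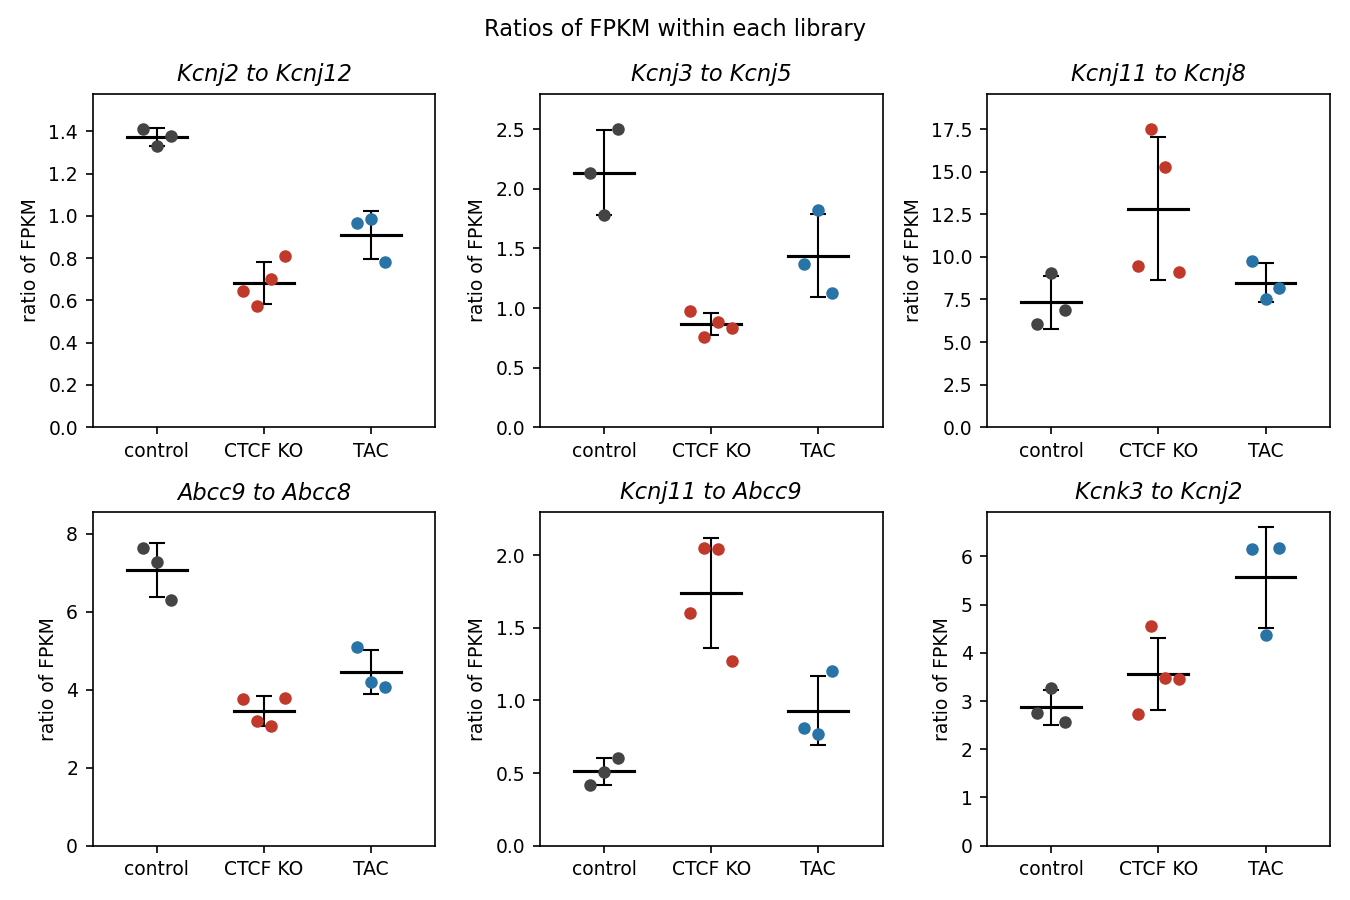
Ratio of FPKM of pairs of genes within each library (vertical axes, from 0), by group; points are libraries, lines means and bars SD. Kcnj2 to Kcnj12 and Abcc9 to Abcc8 are lower in both groups than in control, and Kcnj11 to Abcc9 is highest in the knockout, from 1.27 to 2.05.

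Kcnk3 encodes TASK-1, an acid-sensitive background channel. The gene (ENSMUSG00000049265, chr5:30588170-30625271, plus strand) stood at 47.2, 44.7 and 35.1 FPKM in controls, 23.6, 35, 29.8 and 29.7 in CTCF knockouts and 54.7, 41.8 and 43.3 in TAC. The knockout libraries lay below all others, with the highest of them next to the lowest control, and TAC overlapped control. Kcnk3 fell in the knockout (log2 fold change -0.51, SE 0.15, adjusted p = 0.0346), gave 0.14 in TAC (SE 0.16, 95% interval -0.22 to 0.49, adjusted p = 0.621) and was 0.64 lower in the knockout than in TAC (SE 0.15, adjusted p = 0.0437). The call against control was lost without control replicate 1 (adjusted p = 0.113) or 2 (0.108) or CTCF knockout replicate 1 (0.0839), 3 (0.0640) or 4 (0.0607), and without rescaling (0.0831). Against TAC it was lost without control replicate 2 (0.0621), CTCF knockout replicate 1 (0.0997), 3 (0.104) or 4 (0.0748) or any 1 TAC library (0.0794 to 0.141). The call of Kcnk3 against TAC was also lost with sex as a covariate. Genes on the opposite strand were Gm9899 over Kcnk3 at 5 to 7.29 FPKM, Gm26794 over Kcnj3 at 0.0998 to 0.663 and 5330439B14Rik over Abcc9 at 0.234 to 0.985. Unlike the other levels, these ranges were not rescaled between libraries. Whether the authors' counting used strand is not given in the sources used here.

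Kcnk3 to Kcnj2, a background against a strong rectifier gene, was 2.76, 3.28 and 2.57 in controls, 2.74, 4.56, 3.48 and 3.46 in CTCF knockouts and 6.16, 4.36 and 6.18 in TAC. TAC lay above control with no overlap (exact two-sided permutation p = 0.1, the smallest possible, and 0.147 adjusted over 18 tests), and knockout overlapped control (p = 0.171, exact, and 0.193 adjusted).

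The other genes of these families stood at low levels. None of the 9 other Kcnj genes and none of the 13 other Kcnk genes had a mean of 1 FPKM, so none was tested for calls. Kcnj14, which encodes the strong rectifier Kir2.4, stood at 0.316, 0.249 and 0.244 FPKM in controls, 0.734, 0.859, 1.26 and 1.62 in CTCF knockouts and 1.16, 0.980 and 1.26 in TAC, and all libraries of both groups exceeded all controls. It was chosen after its values were seen (exact two-sided permutation p = 0.0571 in the knockout and 0.1 in TAC, the smallest possible). Kcnj4, likewise chosen, stood at 0.715, 0.778 and 0.369 FPKM in TAC, above 0.120 to 0.322 in controls and 0.133 to 0.189 in knockouts.

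Genes of PIP2 supply and channel anchoring formed the other list, with 19 of 22 tested. In CTCF knockouts 4 rose and 2 fell, against 10.6% and 10.2% of all tested genes, so here too the number that fell is near the background. The median log2 fold change was 0.07 against -0.01. Pip5k1c, a kinase that makes PIP2, rose by 0.66 (adjusted p = 0.00132), the actin crosslinker Flna by 0.59 (0.00981), the phospholipase Plcb4 by 0.49 (0.0158) and Actn2 of the Z-disc by 0.47 (0.0110). Dlg1, the scaffold SAP97 that binds Kir2 channels, had -0.45 (adjusted p = 0.0130) and the adaptor Ank2 -0.46 (0.0210). Plcb4 lost its call without control replicate 2 (adjusted p = 0.0608) or 3 (0.0636), and Ank2 without control replicate 1 (0.0604) or 2 (0.0731) or CTCF knockout replicate 1 (0.0567).

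In TAC 5 of these 19 genes rose and none fell, against 8.08% and 7.37% of all tested genes, and 1 was lower at an unadjusted p under 0.05 in limma. The median was 0.21 against 0. Those that rose were Plcb4 (0.74, adjusted p = 0.00375), Actn2 (0.72, adjusted p = 0.00205), Cav3 of muscle caveolae (0.57, adjusted p = 0.0281), Flna (0.51, adjusted p = 0.0339) and Pip5k1c (0.48, adjusted p = 0.0132). Cav3 lost its call without control replicate 1 (adjusted p = 0.0773) or 2 (0.0619) or TAC replicate 3 (0.0980). Flna lost it without control replicate 1 (0.0858) or 2 (0.0998) or any 1 TAC library (0.0603 to 0.107), and with sex as a covariate.

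Finally, for the 3 genes with the largest called fold change in either comparison with control, the protein-coding genes with the most similar level across the 10 libraries were sought among 10326, as the mean absolute difference after dividing each gene by its mean. Closest to Kcnj3 were Rps6ka5 (8% of the mean level), Prrg1 (8.91%) and Gstt1 (9.01%). Closest to Abcc9 were Ctnnal1 (10.9%), Aox1 (11.5%) and Efnb3 (11.6%). Kcnj5 entered through its change in TAC (-0.87), while in the knockout (-0.39) it came behind Kcnj2 (-0.75) and Kcnk3 (-0.51). It was nearest to Rarb (6.27%), Oard1 (7.07%) and Khdc4 (7.10%).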

How the data were processed

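RNA of isolated left ventricular myocytes was measured in 10 libraries, grouped by the genotype, title and source labels. RNA selection is uncertain: polyA RNA is the labelled molecule, and the protocol in the labels describes Ribo-Zero removal of ribosomal RNA. The authors deposited transcript annotations from Cufflinks with an FPKM, its bounds and a coverage per transcript, on build mm10, and no read counts. Alignment and assembly tools are Bowtie2, TopHat2 2.1.0, Cufflinks 2.2.1 and Cuffdiff, per the submitters' processing notes. Depth is unknown beyond an average in the labels; coverage listed per FPKM varied 1.56-fold between libraries (3.90 to 6.09), and no counting error could be computed.

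FPKM of 109869 transcripts was summed by gene ID. Set apart were 22 gene IDs that were at 0 in some libraries and whose other libraries had a median of at least 100 FPKM, and those with a longest transcript under 300 nt. Rescaling between libraries used the median of ratios over genes with a mean of at least 1 FPKM (factors 0.912 to 1.10). The 11358 genes with a mean of at least 1 were compared as log2(FPKM + 1) with limma 3.58.1 in R 4.3.3 (all 10 libraries, variance trend, two-sided), adjusted by Benjamini-Hochberg over all of them, and called at an adjusted p under 0.05. Fold changes on that scale understate changes of low genes. Ratios used a pseudocount of 0.1 in their exact permutation tests and none where printed. The code was tested on simulated data.

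The 9 genes and the lists were chosen with earlier results of these data known. Named are all 9 genes, called list genes (at most 4 per list by adjusted p, and those needed for counts of 5 or fewer), Ctcf, marker sums, and the 3 genes most like each of the 3 with the largest fold changes. Separate markers were named after their values were seen. Each library is labelled with its own mouse, and no batch is labelled. Alternatives were the pseudocount, the filters, the rescaling, the groups in the fit, the variance trend, sex, a replicate block and leaving out each library; rescaling over all genes was added after seeing the data. In 75-nt stretches shared with other genes, 8 of the 9 genes had none and Abcc9 had 0.16%. Values of 1 marker gene are not reported here.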

Additional observations from a re-analysis of the deposited data

Results flagged for a closer look

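In CTCF knockouts, Kcnj2 of replicate 2 stood at 7.67 FPKM, apart from 8.56, 8.58 and 8.60 in the other knockout libraries. Without that library Kcnj2 still fell (log2 fold change -0.71, adjusted p = 0.00583 by limma). Kcnj11 of CTCF knockout replicate 4 stood at 34.7 FPKM, apart from 42.8, 43.3 and 44.1 in the others, and without it the rise was 0.42 (adjusted p = 0.0137). In both cases 1 library lay farther from its nearest neighbour, relative to the range of the group, than Dixon's 95% limit for 4 libraries. Chance marks about 1 in 20 groups this way, and 18 sets of knockout values were examined.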

How the results depend on the processing

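Between settings, the 9 genes kept direction and side of the threshold in 525 of 618 cases, transcripts of Abcc9 and Kcnj3 in 197 of 216, and ratios kept direction in 216 of 216. Called genes numbered 2362 (CTCF knockout against control), 1755 (TAC against control) and 372 (knockout against TAC). A mean of at least 5 FPKM gave 1487 and 1167 for the first 2, and a fit of only the 2 groups gave 1153 for TAC. For knockout against TAC, no filter on the mean gave 195 and sex as a covariate 233. Leaving out 1 library gave 1689 to 2320, 1236 to 1659 and 133 to 444. Of the 9 genes, knockout against control called 3 with no filter on the mean and 4 without rescaling or with equal protein-coding totals (3 to 7 leaving out 1 library). Knockout against TAC called 0 with no filter, and 1 with short genes kept or with sex (0 to 3 leaving out 1 library). TAC against control called 4 to 5 leaving out 1 library. For the receptor and G protein list, TAC called 3 with no filter, a mean of at least 5 FPKM, no rescaling, equal totals or only 2 groups (3 to 4 leaving out 1 library). For knockout against TAC it called 1 with no filter, short genes kept or sex, and 0 at a mean of at least 5 FPKM, where both of its called genes were below the filter (1 to 2 leaving out 1 library), and 5 to 6 for knockout against control. The PIP2 list called 3 in TAC with no filter (3 to 6 leaving out 1 library) and 4 to 7 in the knockout. The cause of other changes was not tested. Signs that reversed all belonged to differences between knockout and TAC that did not pass. Without rescaling and with equal totals, Kcnj2 gave 0.05 and 0.05, Kcnj8 0.03 and 0.03, and Abcc8 0.02 and 0.03. Leaving out 1 library gave -0.13 to 0.07 for Kcnj2, -0.14 to 0.08 for Kcnj8 and -0.12 to 0.06 for Abcc8. It gave -0.18 to 0.06 for ENSMUST00000112633 and -0.07 to 0.02 for ENSMUST00000112632 of Kcnj3, and -0.18 to 0.02 for ENSMUST00000100827 of Abcc9. With replicate number as a block, knockout against TAC called 200 genes, the 9 genes gave 4 calls in knockout against control and 1 in knockout against TAC, and the receptor list 1 in knockout against TAC. Deviations of 9 same-numbered pairs of libraries correlated at -0.359 to 0.327, with 4 over 0.1, so the numbers were not taken to pair mice. Without counts, depth sets a limit on low genes that cannot be given.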
